A study of Mus musculus with 40 samples.

Results

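Polysomal RNA of mouse zygotes made in vitro was compared with that of the oocytes matured in vitro, to show which messenger RNAs gained or lost polysomal abundance between the matured egg and the pronuclear zygote. The 11 libraries of this comparison, of 40 in the series, were chosen by their labels. They are 4 libraries of pronuclear zygotes obtained by maturation and fertilization in vitro (IMZ), 3 of oocytes matured in vitro after removal of their cumulus cells (IVM), and 4 of oocytes matured in vitro inside cumulus-oocyte complexes (COC). IVM replicate 1 was left out because the file headers mark it as excluded by the authors after a principal component analysis. The 4408 genes listed both in the zygote table (6336 genes) and in the table of the oocyte groups (5018 genes) were used.

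The series has 10 groups of 4 libraries, each a kind of oocyte or zygote as polysomal or as unfractionated total RNA, and its design text asks how maturation in vitro changes which stored mRNAs are translated. The polysomal fraction is RNA that sediments with several ribosomes in a gradient. IMZ differ from IVM and COC in both fertilization and developmental stage, and the labels do not say which of the oocyte types the zygotes came from. Strain, age, numbers of cells per library and whether replicates came from separate animals are not given in the labels. A p-value here therefore tells of the spread among the libraries, part of which may be technical.

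A full-grown mouse oocyte is nearly silent in transcription and carries its mRNA as a store. During meiotic maturation some of these mRNAs are polyadenylated in the cytoplasm and join polysomes, through elements such as the cytoplasmic polyadenylation element (CPE) near the end of the 3′UTR, while many housekeeping and zona mRNAs lose their tails and are degraded. After fertilization the egg leaves metaphase II, builds pronuclei and replicates DNA, still mainly on maternal mRNA.

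Read depth could be recovered for 9 of the 11 libraries and ran from 4.93 M reads (IVM replicate 2) to 38.9 M (COC replicate 3). For IVM replicates 3 and 4 it is unknown. Values are RPKM, read numbers divided by gene length and by the size of the library, rescaled by the median of ratios between libraries (factors of 0.777 to 1.18). Spearman correlations across genes were 0.87 to 0.926 among IMZ, 0.882 to 0.964 among oocyte libraries and 0.806 to 0.915 between the stages. RPKM gives a gene's share of a library, so the total amount of RNA on polysomes is not seen, and fewer cells of a type cannot be told apart from less RNA per cell. Of 16 oocyte identity markers 15 were measured, with a summed level of 4096 to 5587 RPKM in IMZ, 5348 to 7187 in IVM and 5302 to 6686 in COC. Of 38 cumulus and granulosa markers 3 were measured (Nr5a2, Nrp1 and Serpine2), summing to 70.43 to 147.6 RPKM in IMZ, 33.16 to 70.94 in IVM and 49.8 to 58.32 in COC. All 3 had a change above 0 in IMZ, and Serpine2 was called higher, at 84.1 ± 33.5 RPKM in IMZ (SD, n = 4), 39.1 ± 20.7 in IVM (n = 3) and 43.2 ± 3.87 in COC (n = 4, limma adjusted p = 0.0373), a call lost without 8 of the 11 libraries (IMZ replicates 1 and 2, IVM replicates 2 and 3 and all 4 of COC, adjusted p of 0.0501 to 0.114). The part of such cells in the higher calls below was not tested. Of 20 sperm and testis markers 2 were measured (Odf2 and Tuba3a), summing to 34.16 to 57.25 RPKM in IMZ, 107.5 to 158.3 in IVM and 72.31 to 138.4 in COC, and neither protamine was among the genes listed.

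The sequences below are 30 bases that hold a CPE or a polyadenylation signal, from GENCODE M21 transcripts of GRCm38, written 5′ to 3′ as DNA. Whether these elements bear on the results was not tested. The files use GRCm39, so no coordinates are given. The first set holds a CPE (TTTTAT or TTTTAAT, in capitals) in the last 150 bases of the annotated 3′UTR. Ccnb1, Sumo2 and Nup37 are mRNAs that were higher on zygote polysomes, and Plat and Lbr are mRNAs that fell in total RNA and were not called on polysomes. They lie on chromosomes 13, 11, 10, 8 and 1 in that order.
Ccnb1: tctcatttgctgTTTTAATttatacatctg
Sumo2: aaccaaggacaaTTTTATaacttttttgta
Nup37: aaaaatccttatTTTTATatcaaacatact
Plat: agtatatttataTTTTAATctattttagtt
Lbr: ggtgcaagttgtTTTTAATttgatgtttgg
The capitals begin 144, 147, 77, 89 and 66 bases before the annotated end. The second set is the first 30 bases of the very short 3′UTR of 2 zona genes that fell, on chromosomes 19 and 7. The polyadenylation signal AATAAA is in capitals.
Zp1: atggactcAATAAAccattgtttgaaaact
Zp2: ttggacttgcaAATAAAgagactgcagtta
The whole 3′UTR is 34 bases in Zp1, 49 in Zp2 and 13 in Zp3, against 1028 in Ccnb1 and 1523 in Lbr, as annotated.

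Against the mean of IVM and COC, 78 genes were higher (1.77% of 4408) and 197 were lower (4.47%) on IMZ polysomes, at a limma adjusted p under 0.05. The mRNAs of the zona pellucida genes Zp1, Zp2 and Zp3 fell. So did 13 of 69 for cytosolic ribosomal proteins, 12 of 55 for nuclear-encoded respiratory chain subunits and 5 of 31 for proteasome genes. Of 14 for oocyte F-box proteins 7 fell, but apart from Fbxw13 these were picked out after their values were seen. Of 12 mitochondrially encoded mRNAs 7 rose. The change reached 1 or more on the log2 scale, a 2-fold change, in 23 of the higher genes (0.522% of all) and 125 of the lower (2.84%). In 141 genes (3.2%) every IMZ library lay above all 7 oocyte libraries, and in 157 (3.56%) every IMZ library lay below them. The split depends on the scaling and the count on single libraries. With RPKM as deposited the median change of all genes was -0.11 in place of 0.02, and 19 genes were higher and 275 lower. With quantile normalization 119 were higher and 167 lower. Leaving out IMZ replicates 1 to 4 in turn gave 30, 28, 27 and 29 higher genes, IVM replicate 3 gave 25, and COC replicates 2 to 4 gave 38, 48 and 24. Leaving out IMZ replicates 1, 2 and 4 in turn gave 131, 127 and 111 lower genes, IVM replicates 2 and 3 gave 300 and 85, and COC replicates 2 and 4 gave 129 and 99.

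The lower genes had shorter and more GC-rich transcripts. Their median transcript was 1521 bases with a 3′UTR of 239 bases and 54.6% GC, against 3093 bases, 949 bases and 50.4% over all genes, and the higher genes had 2822 bases, 876 bases and 45% GC. Across 4402 genes the Spearman correlation of the polysomal log2 fold change was -0.41 with transcript GC and 0.20 with 3′UTR length. With each library's trend on GC removed, 39 genes were higher and 122 lower. A CPE stood in 15.7% of the 178 lower genes with a searchable 3′UTR (50 bases or more) and in 29.6% of the 71 higher genes, against 25.7% of all 4272.

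**Figure D1:**
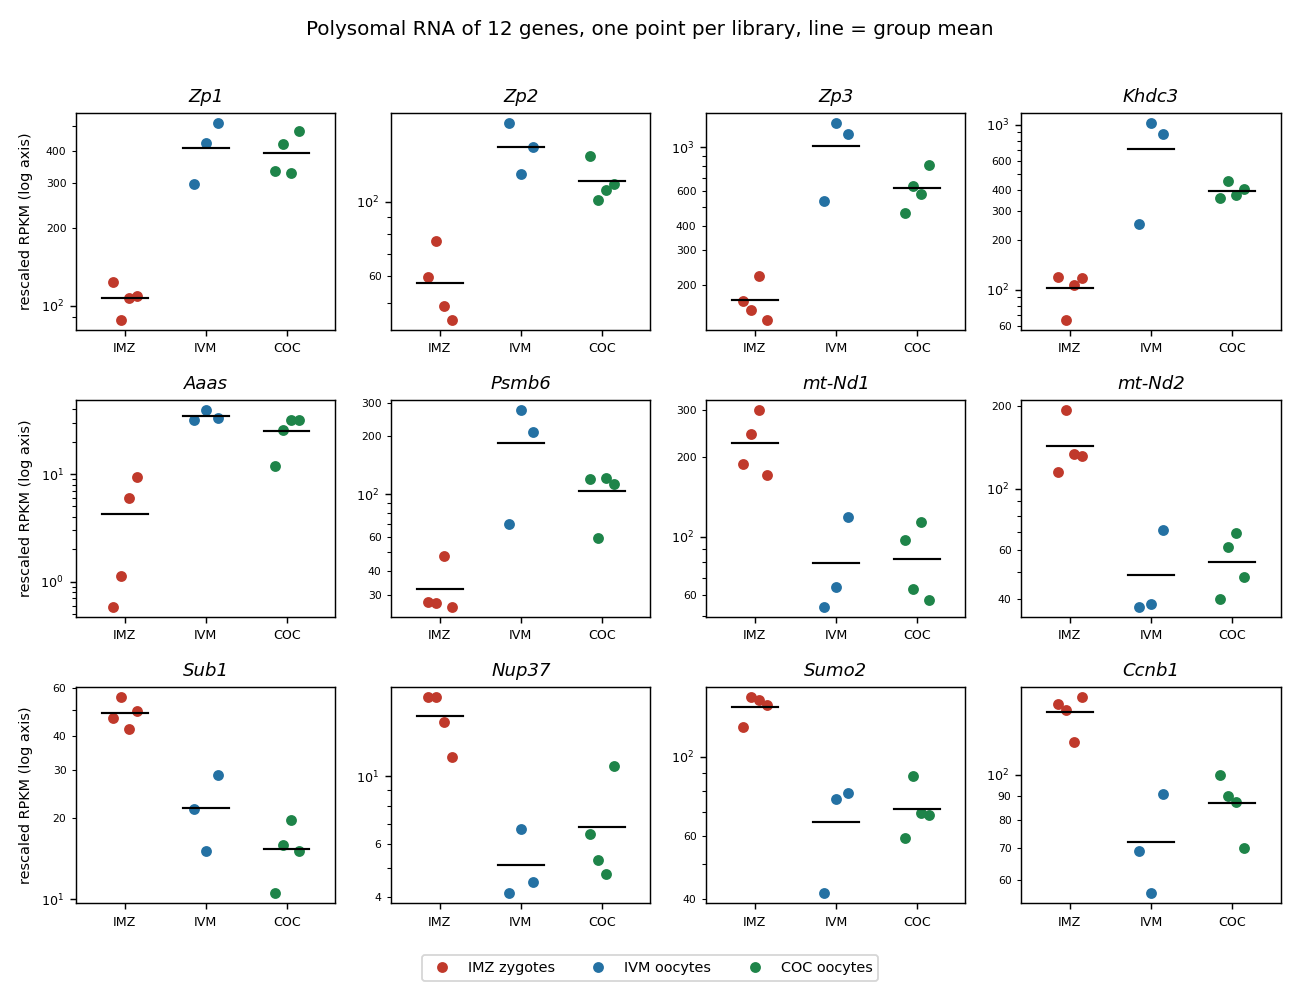
Rescaled polysomal RPKM (log axis) of 12 genes, with a point for each library and a line at the group mean, in IMZ zygotes, IVM oocytes and COC oocytes. The IMZ points lie below every oocyte point for Zp1, Zp2, Zp3, Khdc3, Aaas and Psmb6 and above every oocyte point for mt-Nd1, mt-Nd2, Sub1, Nup37, Sumo2 and Ccnb1.

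The mRNAs of the egg coat fell together. The zona pellucida is the glycoprotein shell to which sperm bind, laid down while the oocyte grows. Zp3 (ENSMUSG00000004948), its primary structural glycoprotein, had 166, 150, 222 and 133 RPKM in the 4 IMZ libraries, against 536, 1327 and 1172 in IVM and 464, 634, 578 and 815 in COC. All IMZ values were below all oocyte values, and the change was -2.19 ± 0.25 on the log2(RPKM + 1) scale (SE, limma adjusted p = 0.000169). Zp1 (ENSMUSG00000024734), the crosslinker of the filaments, had 124, 87.9, 107 and 109 RPKM in IMZ, against 297, 429 and 515 in IVM and 336, 426, 329 and 480 in COC. These groups did not overlap either, at -1.89 ± 0.20 (limma adjusted p = 9.37e-05). Zp2, to whose N-terminus sperm bind, had 59.7, 76.1, 48.9 and 44.5 RPKM in IMZ, against 171, 121 and 145 in IVM and 137, 101, 108 and 113 in COC, with no overlap and a change of -1.18 ± 0.20 (limma adjusted p = 0.00298).

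Of 18 measured genes for the zona, sperm binding and oocyte-secreted factors, 5 were lower and 0 higher, with a median of -0.08 against 0.02 over all genes, and 3 were lower without IMZ replicate 2. The other two lower members were Astl, the cortical granule protease that cleaves ZP2 after fertilization (-1.01, limma adjusted p = 0.0226), and the growth factor gene Fgf8 (-0.85, limma adjusted p = 0.0328). The call of Astl was lost without IMZ replicate 1 or 2 (adjusted p of 0.0589 to 0.0649), and that of Fgf8 without IMZ replicate 2, 3 or 4, IVM replicate 3, or COC replicate 2 or 4 (0.0555 to 0.1). Gdf9, the oocyte growth factor that acts on granulosa cells, had 778, 706, 684 and 736 RPKM in IMZ, against 906, 1152 and 1535 in IVM and 644, 963, 1186 and 1176 in COC. The groups overlapped, and its change of -0.55 ± 0.21 did not pass (limma adjusted p = 0.131).

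Members of the subcortical maternal complex, a protein assembly under the egg cortex that embryos need for cleavage, included calls in both directions. Of 15 measured genes of the complex and of oocyte NLRP proteins, 2 were lower and 1 higher, with a median of 0.16. The shares over all genes were 4.47% lower and 1.77% higher. Khdc3 (ENSMUSG00000092622), also called Filia, had 119, 65.6, 107 and 118 RPKM in IMZ, against 249, 1024 and 879 in IVM and 360, 455, 374 and 408 in COC. Every IMZ value was below every oocyte value (-2.29 ± 0.32, limma adjusted p = 0.000839). IVM replicate 2 was the lowest oocyte library for Khdc3, as it was among the IVM libraries for Zp3. Tle6 was lower (-0.80, limma adjusted p = 0.0473) and Nlrp5, also called Mater, was higher (0.69, limma adjusted p = 0.0459). Both of these calls were lost without each of IMZ replicates 1 to 4, IVM replicate 3, COC replicates 2 to 4 and 1 more library, IVM replicate 4 for Tle6 and IVM replicate 2 for Nlrp5 (adjusted p of 0.0693 to 0.119 and of 0.0528 to 0.116). The paralogous NLRP genes are alike in sequence, so reads may be divided between them.

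Oocyte F-box genes of the Fbxw family, which all lie on chromosome 9 and encode substrate adaptors of SCF ubiquitin ligases, were also lower. Apart from Fbxw13 they were picked out after their values were seen. Of 14 measured members 7 were lower (Fbxw13, Fbxw15, Fbxw16, Fbxw18, Fbxw19, Fbxw20 and Fbxw21) and 0 higher, with a median of -0.93. Over all genes 4.47% were lower, but that share cannot be fairly compared with a family picked out in this way. Fbxw18 averaged 58.6 ± 12.7 RPKM in IMZ (SD, n = 4) with oocyte libraries from 129 to 221 (median 171), and its change was -1.56 (limma adjusted p = 0.000664). The calls of Fbxw15, Fbxw19 and Fbxw20 were lost without IMZ replicate 1 or 4 or IVM replicate 3. Those of Fbxw15 and Fbxw20 were also lost without IMZ replicate 3 or COC replicate 2 or 4, that of Fbxw15 without COC replicate 1, and that of Fbxw20 without IVM replicate 2 or COC replicate 3 (adjusted p of 0.0502 to 0.117 over the 3 genes). Fbxw14 and Fbxw28, at 137 ± 26.6 and 208 ± 32.4 RPKM in IMZ, changed by 0.03 and -0.11 and did not pass. The members are close copies of each other, so how reads were divided among them is uncertain.

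mRNAs for the protein synthesis and breakdown machinery were lower in part. Of 69 cytosolic ribosomal protein genes 13 were lower and 0 higher, with a median of -0.56, and 57 of 69 had a change below 0. Rps13, a small subunit protein, had 6.04, 14.3, 13 and 7.91 RPKM in IMZ, against 39.7, 86 and 60.9 in IVM and 54.5, 26.8, 26.2 and 27.3 in COC. All IMZ values were below all oocyte values (-2.05 ± 0.29, limma adjusted p = 0.00105). Rplp2, an acidic stalk protein, had 68.2, 19.7, 50.2 and 41.4 RPKM in IMZ, against 80.1, 211 and 173 in IVM and 158, 143, 105 and 111 in COC (-1.69 ± 0.31, limma adjusted p = 0.00663), again with no overlap. Ribosomal protein genes have many processed pseudogenes, so their levels are uncertain. Without IMZ replicates 1 to 4 in turn the count of 13 became 6, 6, 23 and 4, and it was 21 and 4 without IVM replicates 2 and 3 and 4 and 5 without COC replicates 2 and 4. It was 28 with RPKM as deposited, 6 with the GC trend removed and 7 with the length trend removed, where 1 member was higher. The summed level of the 69 genes in IMZ replicate 3, 12020 RPKM, exceeded the 5798 to 7183 of the other IMZ libraries. It lay inside the range of the oocyte libraries, 8897 to 17780 in IVM and 8337 to 12380 in COC. In total RNA 60 of the 69 were lower and 0 higher (median -0.83), against 27.4% of all genes lower. For 0 of the 69 did the polysomal and total changes differ at a limma adjusted p under 0.05, and the median difference was 0.35 (0.04 over all genes). Of all genes 1.11% passed this test above and 0.59% below, so 0 of 69 does not show that the changes were alike.

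Of 44 mitochondrial ribosomal protein genes 6 were lower and 0 higher (median -0.46), a count that was 3 without IMZ replicate 2 or IVM replicate 3, 2 without IMZ replicate 4, 12 (with 1 higher) without IVM replicate 2, 11 with RPKM as deposited and 3 with the length trend removed. Of 40 translation factors, Eif3g (-1.30, limma adjusted p = 0.00267) and Eif3k (-1.20, limma adjusted p = 0.0247), both subunits of the eIF3 initiation complex, were lower, and Eif2s2, the beta subunit of eIF2, was higher (0.83, limma adjusted p = 0.0139). The call of Eif3k was lost without IMZ replicate 2 or 4, IVM replicate 3 or COC replicate 4 (adjusted p of 0.0529 to 0.0779), and that of Eif2s2 with RPKM as deposited and with IVM replicate 1 kept in (up to 0.197). The 40 factors had a median of -0.04, near that of all genes.

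Of 31 proteasome genes 5 were lower and 0 higher (median -0.20), and 3 were lower without IMZ replicate 3, IVM replicate 3 or COC replicate 4, against 10 (with 1 higher) with array weights. Psmb6, a catalytic beta subunit, had 27.6, 27.3, 47.7 and 26 RPKM in IMZ, against 70.2, 275 and 212 in IVM and 120, 59, 122 and 113 in COC. The groups did not overlap (-1.98 ± 0.33, limma adjusted p = 0.00298), and IMZ replicate 3 and COC replicate 2 stood apart from their groups. Psmb1, another beta subunit, changed by -1.53 ± 0.24 (limma adjusted p = 0.00228), and Psmg4, an assembly chaperone, by -1.49 ± 0.26 (limma adjusted p = 0.00401). The polyubiquitin gene Ubb, named after its values were seen, changed by -0.98 (limma adjusted p = 0.0255). Its call was lost without IMZ replicate 1, 3 or 4, IVM replicate 3, or COC replicate 2 or 4 (adjusted p of 0.051 to 0.0854).

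Respiratory chain subunits are encoded in both the mitochondrial and the nuclear genome. Mitochondrially encoded mRNAs are made and translated inside the organelle by its own ribosomes, while most subunits are nuclear-encoded and translated in the cytosol. Of 12 mitochondrially encoded mRNAs 7 were higher and 0 lower, with a median of 1.24, and all 12 had a change above 0. mt-Nd1 (ENSMUSG00000064341), a complex I core subunit, had 188, 243, 301 and 171 RPKM in IMZ, against 54.3, 64.6 and 119 in IVM and 96.7, 63.1, 113 and 57.5 in COC. Every IMZ library was above every oocyte library (1.50 ± 0.26, limma adjusted p = 0.00401).

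mt-Nd2, another complex I core subunit, had 115, 193, 134 and 131 RPKM in IMZ, against 37.4, 38.2 and 71.1 in IVM and 40, 61.4, 68.9 and 47.8 in COC, with no overlap (1.47 ± 0.23, limma adjusted p = 0.00233). The other higher members were mt-Atp8 (1.81), mt-Atp6 (1.34), mt-Cytb (1.27), mt-Nd4 (1.24) and mt-Co2 (1.23). mt-Nd6, encoded on the opposite strand, changed by 0.11 ± 0.34 and did not pass (limma adjusted p = 0.874), nor did mt-Nd4l, mt-Nd5, mt-Co1 and mt-Nd3, at 1.06, 0.89, 0.67 and 0.62. The summed level of the 12 mRNAs was 1825, 2532, 3197 and 2232 RPKM in IMZ, against 807.3, 786.2 and 1473 in IVM and 1457, 1214, 1400 and 765.9 in COC. The call of mt-Atp8 was lost without IMZ replicate 1, 2 or 3 or IVM replicate 3 (adjusted p of 0.0688 to 0.102), that of mt-Co2 without IMZ replicate 2, 3 or 4, IVM replicate 3 or COC replicate 3 or 4 (0.0512 to 0.0913), and that of mt-Nd4 without IMZ replicate 3 or 4 or IVM replicate 3 (0.0516 to 0.0658). The count of 7 became 4 without IMZ replicate 3 or without IVM replicate 3, and the median stayed between 0.92 and 1.59 under every alternative tried. In total RNA 11 of the 12 were also higher and 0 lower, with a median of 0.63, against 29.8% of all genes higher. For 0 of the 12 did the polysomal and total changes differ at a limma adjusted p under 0.05, and the median difference was 0.49 (0.04 over all genes). Of all genes 1.11% passed this test above and 0.59% below, so 0 of 12 does not show that the changes were alike. How mitochondria or their ribosomes behaved in the gradient was not tested.

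Of 55 nuclear-encoded respiratory chain genes 12 were lower and 0 higher (median -0.39). Atp5d, the delta subunit of ATP synthase, had 14.3, 7.04, 8.54 and 7.58 RPKM in IMZ, against 18.6, 32.5 and 47.3 in IVM and 43.7, 34.1, 36 and 28.2 in COC. The groups did not overlap (-1.75 ± 0.26, limma adjusted p = 0.00155). The complex I subunit genes Ndufs7 and Ndufa9 changed by -1.72 ± 0.33 and -1.63 ± 0.32 (limma adjusted p = 0.00744 and 0.00844), the call of Ndufs7 being lost with IVM replicate 1 kept in (0.0667). Atp5o_2, as the file names an entry for the OSCP subunit of ATP synthase, had the second lowest value of all genes (-2.67 ± 0.26, limma adjusted p = 9.09e-05), and how reads were divided between such numbered entries is uncertain. The count of 12 became 7, 8 and 8 without IMZ replicate 4, IVM replicate 3 and COC replicate 4. It was 8 without IMZ replicate 1 and 18 without IVM replicate 2. In total RNA 45 of the 55 were lower and 1 higher (median -0.75), against 27.4% of all genes lower. For 0 of the 55 did the polysomal and total changes differ at a limma adjusted p under 0.05, and the median difference was 0.21 (0.04 over all genes). Of all genes 1.11% passed this test above and 0.59% below, so 0 of 55 does not show that the changes were alike.

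**Figure D2:**
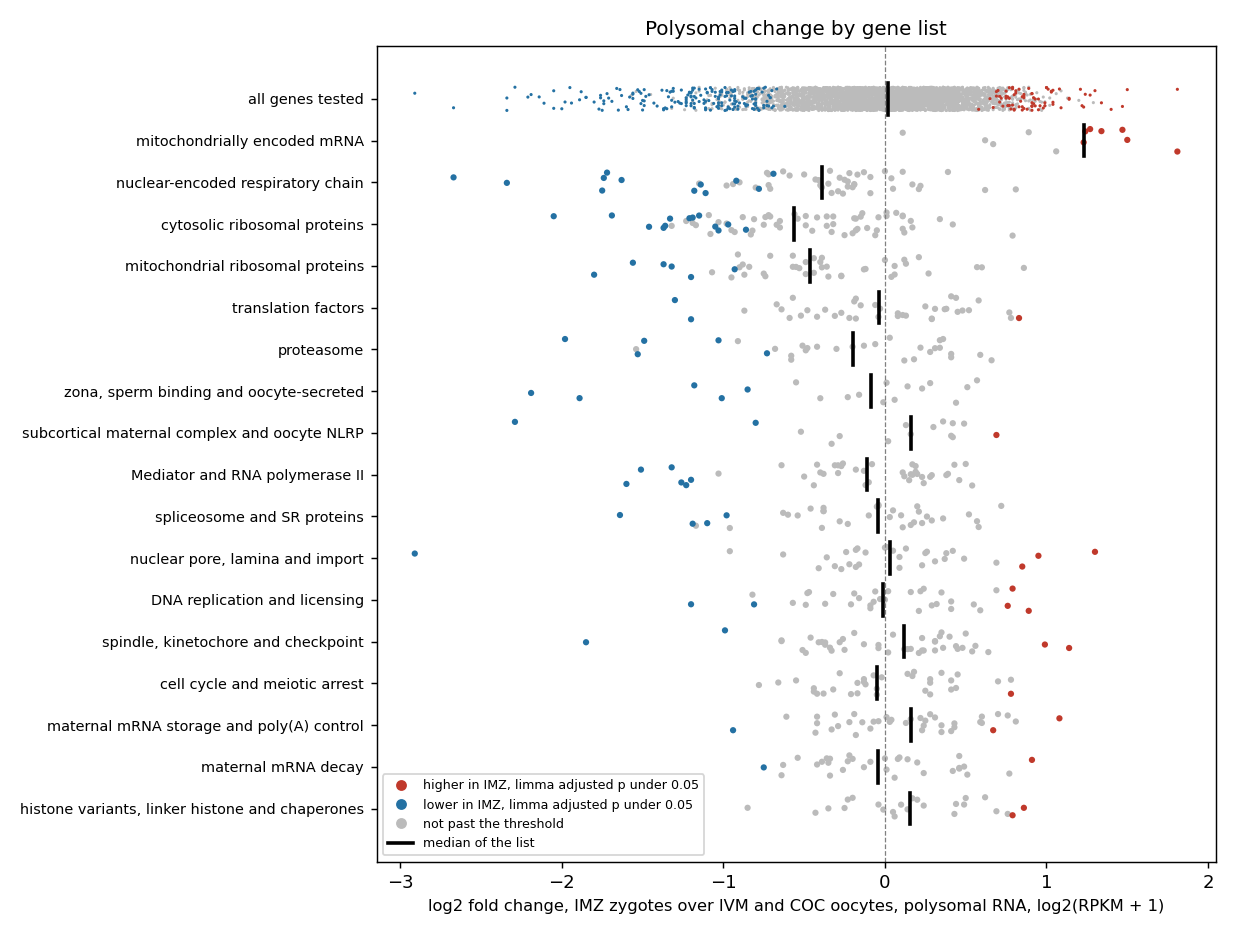
Log2 fold change of IMZ over the mean of IVM and COC in polysomal RNA, with a point for each gene and a bar at the median of each list; red and blue points are genes higher and lower in IMZ at a limma adjusted p under 0.05. Mitochondrially encoded mRNAs have a median of 1.24, cytosolic ribosomal proteins -0.56 and all genes 0.02.

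Among genes of RNA synthesis and processing, calls were mostly lower, as they were over all genes (1.77% higher and 4.47% lower). Of 42 Mediator and RNA polymerase II genes 6 were lower and 0 higher (median -0.11), led by the Mediator subunit Med29 (-1.60 ± 0.30, limma adjusted p = 0.00744) and the RNA polymerase II subunit gene Polr2j (-1.26 ± 0.23, limma adjusted p = 0.00557). That count became 3, 3, 2 and 3 without IMZ replicate 1, IMZ replicate 2, IVM replicate 3 and COC replicate 2. Of 36 spliceosome genes 4 were lower and 0 higher (median -0.05), led by Snrpd2, a core Sm protein (-1.64 ± 0.31, limma adjusted p = 0.00696). The count of 4 became 1 without IMZ replicate 2 or IVM replicate 3, 2 (with 1 higher) without IMZ replicate 3, 7 without IVM replicate 2 and 1 with the GC trend removed. Ddx39b, an RNA helicase of splicing and export, had 9.49, 7.69, 10.1 and 7.36 RPKM in IMZ, against 33.2, 46.9 and 47.2 in IVM and 23.9, 33.9, 28.5 and 39.5 in COC. It did not overlap between the stages (-1.95 ± 0.21, limma adjusted p = 9.37e-05), though its call was lost with IVM replicate 1 kept in (-1.52, adjusted p of 0.132).

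mRNAs for the nuclear envelope, which is rebuilt around the pronuclei, included calls in both directions. Of 32 genes for the nuclear pore, the lamina and import, 3 were higher and 1 was lower (median 0.03), against 1.77% higher and 4.47% lower over all genes. The higher count became 1 with RPKM as deposited, with IVM replicate 1 kept in, and without IMZ replicate 3 or 4 or IVM replicate 3. Nup37 (ENSMUSG00000035351), a scaffold nucleoporin, had 18.3, 18.2, 15.1 and 11.6 RPKM in IMZ, against 4.12, 6.7 and 4.5 in IVM and 6.48, 5.31, 4.78 and 10.8 in COC. All IMZ values were above all oocyte values, closely so against COC replicate 4 (1.30 ± 0.25, limma adjusted p = 0.00744). The lamin B1 gene Lmnb1 (0.95 ± 0.22, limma adjusted p = 0.024) and Tmpo, which encodes the lamina-associated LAP2 proteins (0.85 ± 0.21, limma adjusted p = 0.028), were higher.

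Aaas, the nucleoporin ALADIN, had the lowest value of all genes, with 0.585, 1.12, 6.03 and 9.44 RPKM in IMZ, against 31.9, 39.5 and 33.2 in IVM and 12, 25.6, 32 and 31.6 in COC. The IMZ libraries spread widely but stayed below every oocyte library (-2.91 ± 0.44, limma adjusted p = 0.0017). The call of Nup37 was lost with IVM replicate 1 kept in (adjusted p of 0.294). That of Lmnb1 was lost without IMZ replicate 2, 3 or 4 or IVM replicate 3 (0.0593 to 0.0648), and that of Tmpo without IMZ replicate 1, 3 or 4, IVM replicate 3 or COC replicate 3 or 4 (0.0521 to 0.0873).

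Of the 6 genes called higher against IVM, against COC and against both, Nup37, mt-Nd1 and mt-Nd2 are given above, and the others were Sub1, Sumo2 and Gnl3. Sub1 (ENSMUSG00000022205), the transcriptional coactivator PC4, had 46.5, 55.8, 42.5 and 49.3 RPKM in IMZ, against 21.5, 15 and 28.6 in IVM and 10.5, 15.9, 19.6 and 15.1 in COC, with no overlap (1.40 ± 0.22, limma adjusted p = 0.00233). Sumo2 (ENSMUSG00000020738), a ubiquitin-like modifier of nuclear proteins, had 121, 147, 144 and 139 RPKM in IMZ, against 41.4, 76 and 79.1 in IVM and 59.2, 88.1, 69.7 and 68.6 in COC. No library of one stage reached into the other (1.03 ± 0.21, limma adjusted p = 0.0105). Gnl3, the nucleolar GTPase nucleostemin, had 17.7, 19.4, 24.8 and 16.9 RPKM in IMZ, against 5.73, 8.9 and 11.8 in IVM and 10.1, 7.52, 9.68 and 7.82 in COC (1.09 ± 0.23, limma adjusted p = 0.0116), again without overlap.

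Of 45 spindle, kinetochore and checkpoint genes 2 were higher and 2 lower (median 0.12), against 1.77% higher and 4.47% lower over all genes. Prc1, which crosslinks the microtubules of the central spindle, had 51.3, 47, 47.2 and 48.1 RPKM in IMZ, against 20.4, 15.7 and 39.7 in IVM and 15.3, 23.2, 27.4 and 14.7 in COC. The IMZ libraries were close together and above every oocyte library (1.14 ± 0.25, limma adjusted p = 0.0177). The microtubule-associated Ckap2 was higher (0.99 ± 0.21, limma adjusted p = 0.0138, and 0.0626 with the GC trend removed), and the kinetochore gene Spc24 (-1.85 ± 0.33, limma adjusted p = 0.00485) and the gamma-tubulin gene Tubg1 (-0.99 ± 0.25, limma adjusted p = 0.0286) were lower. The call of Tubg1 was lost without IMZ replicate 2 or 3, IVM replicate 3 or 4, or COC replicate 2 or 4 (adjusted p of 0.0538 to 0.0913).

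Ccnb1 (ENSMUSG00000041431), cyclin B1 of the M-phase kinase, was the member called among 34 genes of the cell cycle and meiotic arrest, whose median was -0.05. It had 141, 137, 117 and 146 RPKM in IMZ, against 69, 56.1 and 91 in IVM and 100, 90.1, 87.5 and 70 in COC. The groups did not overlap (0.78 ± 0.19, limma adjusted p = 0.0251), but the call was lost without IMZ replicate 1, 2 or 4, IVM replicate 3 or COC replicate 4 (adjusted p of 0.0531 to 0.0692), with RPKM as deposited and with the GC trend removed. Of 24 DNA damage response and repair genes (median 0.19) Xrcc1, the scaffold of single-strand break repair, was the member called. It had 17.3, 15.5, 18.6 and 22.5 RPKM in IMZ, against 63.9, 75.1 and 68.5 in IVM and 60.8, 90.4, 60.2 and 78.9 in COC. Its groups stood far apart (-1.88 ± 0.19, limma adjusted p = 9.09e-05). Beside these lists of 34 and 24 genes, the shares over all genes were 1.77% higher and 4.47% lower.

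Of 34 genes of DNA replication and licensing 3 were higher (Orc2, Pold3 and Top2a, by 0.89, 0.76 and 0.79) and 2 lower (Tyms, thymidylate synthase, by -1.20, and the helicase subunit gene Mcm5, by -0.81). The shares over all genes were 1.77% higher and 4.47% lower. Of 24 genes for histone variants, linker histone and chaperones 2 were higher, H3f3a, which encodes histone variant H3.3 (0.79, limma adjusted p = 0.0353), and the chaperone Npm1 (0.86, limma adjusted p = 0.0199). Each of these calls was lost without at least 1 library. For Tyms it was IMZ replicate 4 (adjusted p of 0.0505, and 0.136 with IVM replicate 1 kept in). For Npm1 it was IMZ replicate 2 or 3 (0.0506 to 0.0647). For Orc2, Pold3, Top2a, Mcm5 and H3f3a it was 9, 8, 10, 9 and 7 of the 11 libraries, IMZ replicates 1 to 3, IVM replicate 3 and COC replicate 4 among them in each case (up to 0.116).

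Genes that handle stored maternal mRNA held few calls, as did all genes together (1.77% higher and 4.47% lower). Of 39 genes of mRNA storage and poly(A) control 2 were higher, Pabpn1, a nuclear poly(A) binding protein (1.08, limma adjusted p = 0.0154), and G3bp2 (0.67, limma adjusted p = 0.0405), and Zar1, an RNA-binding protein of stored mRNA, was lower (-0.94, limma adjusted p = 0.0168). Of 32 genes of mRNA decay Cnot6l, the catalytic deadenylase that removes maternal tails, was higher (0.91, limma adjusted p = 0.0269) and the decapping gene Dcp1a lower (-0.75, limma adjusted p = 0.0356). Btg4, the adaptor that brings the deadenylase to maternal mRNA, had 278, 268, 318 and 323 RPKM in IMZ, against 196, 159 and 278 in IVM and 298, 172, 263 and 189 in COC. Its groups overlapped, and the change of 0.46 ± 0.21 did not pass (limma adjusted p = 0.201). The call of Pabpn1 was lost without IMZ replicate 1 (adjusted p of 0.0525) and with IVM replicate 1 kept in (0.175). That of Zar1 was lost without IMZ replicate 2 (0.0543), and that of Cnot6l without IMZ replicate 1, 3 or 4, IVM replicate 3 or COC replicate 4 (0.0534 to 0.0809). Those of Dcp1a and G3bp2 were lost without 8 and 9 of the 11 libraries, all but COC replicate 1 and IVM replicate 2 in both and COC replicate 2 for Dcp1a (up to 0.136).

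No member was called in 8 lists: 20 early zygotic transcription genes (median 0.25), 10 genes of DNA methylation and imprint protection (0.07), 20 of egg activation and calcium signalling (0.21), 14 of antioxidant defence (-0.29), 13 of glycolysis and pyruvate use (-0.22), 44 of cohesin, condensin and chromatin remodelling (0.19), 15 replication-dependent histones (0.07) and 13 PRAME-like genes (0.05). Over all genes 1.77% were higher and 4.47% lower, so a short list may well hold 0 calls. Of 39 stress response genes only Dnajb4 was called (0.70, limma adjusted p = 0.0405), a call lost without 8 of the 11 libraries. Of 4 aminoacyl-tRNA synthetase genes Fars2, the mitochondrial phenylalanine enzyme, was lower (-1.50 ± 0.28, limma adjusted p = 0.00663). Dppa3, a maternal protector of DNA methylation, had 460, 527, 472 and 314 RPKM in IMZ, against 389, 359 and 257 in IVM and 400, 398, 405 and 369 in COC. These groups overlapped and the change of 0.27 ± 0.19 did not pass (limma adjusted p = 0.416).

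Each oocyte type was also set against the zygotes on its own. Against IVM 12 genes were higher (0.272%) and 80 lower (1.81%), and against COC 38 were higher (0.862%) and 107 lower (2.43%). Both comparisons use the same 4 IMZ libraries, so they are not independent, and the difference between the oocyte types was not tested. In all 3 tests 6 genes were higher (Gnl3, mt-Nd1, mt-Nd2, Nup37, Sub1 and Sumo2, 0.136%) and 54 were lower (1.23%), 51 of them (1.16%) with no overlap between the stages. Zp3 changed by -2.51 against IVM and -1.88 against COC (limma adjusted p = 0.000513 and 0.00419), Khdc3 by -2.59 and -1.98, and Xrcc1 by -1.86 and -1.91. Sub1 changed by 1.17 against IVM and 1.63 against COC, and Sumo2 by 1.11 and 0.95. Ccnb1 passed against IVM (0.92, limma adjusted p = 0.0455) and not against COC (0.64, limma adjusted p = 0.106), while Cnot6l passed against COC (1.12, limma adjusted p = 0.0285) and not against IVM (0.69, limma adjusted p = 0.195).

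Against IVM the lower count became 168, 21 and 31 without IVM replicates 2, 3 and 4 and 52 without COC replicate 4, which shares in the estimate of the spread. The higher count against IVM became 7, 4 and 7 without IMZ replicates 1, 2 and 4 and 1 without IVM replicate 3. Against COC the lower count became 56 and 61 without IMZ replicates 1 and 4 and 32, 55 and 29 without COC replicates 2 to 4. The higher count against COC became 11, 22, 11 and 14 with each of IMZ replicates 1 to 4 left out, and 3, 13 and 6 with each of COC replicates 2 to 4 left out.

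The polysomal change was then set against the change in total RNA, measured in 12 libraries of the same kinds of cell (IMZ, IVM and COC, n = 4 each). Total RNA is the pool from which polysomes draw, so a difference between the changes is a change in the share of an mRNA found on polysomes, relative to other mRNAs. More genes passed in total RNA, with 1314 higher (29.8%) and 1208 lower (27.4%) of the 4405 genes present in both fractions. The median SE was 0.07 in total RNA, over 10738 genes, against 0.25 on polysomes. The counts therefore do not show which fraction changed more. Of the 197 genes lower on polysomes 175 were also lower in total RNA, with medians of -1.11 on polysomes and -0.87 in total RNA. Of the 78 genes higher on polysomes 47 were higher and 2 lower in total RNA, with medians of 0.90 and 0.31. In total RNA 28 of 44 mitochondrial ribosomal protein genes were lower and 2 higher (median -0.46). Of 31 proteasome genes 17 were lower there and 2 higher (median -0.33).

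In a limma test of the difference itself over 23 libraries, the polysomal change was above the total change in 49 genes (1.11%) and below it in 26 (0.59%). Polysomal libraries varied more than total ones, and with each fraction given its own spread the counts were 13 (0.295%) and 4 (0.0908%). Of the 49 genes 35 were lower in total RNA and 13 were higher on polysomes, with medians of -0.55 in total RNA and 0.41 on polysomes. A CPE stood in the searched 3′UTR end of 24 of 48 of them (50%) and in 7 of 25 (28%) of the genes below, against 25.7% of all genes. With 3′UTRs of 150 bases or more alone the shares were 48.8%, 21.7% and 26.6%. These searches read the transcript strand only, and a match is a description of these letters and not of a working site.

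The gene furthest above its total change was Mos, the kinase of the cytostatic factor that holds the egg at metaphase II and whose mRNA is a classical target of polyadenylation in maturation. In total RNA Mos averaged 22.1 ± 6.41 RPKM in IMZ, 140 ± 14.6 in IVM and 144 ± 8.95 in COC (SD, n = 4 each), a change of -2.67 (limma adjusted p = 4.81e-09). On polysomes it had 51.1, 46.1, 68.1 and 63.3 RPKM in IMZ, against 51, 98.7 and 108 in IVM and 57.6, 95.9, 79.3 and 61 in COC. The polysomal groups overlapped, with a change of -0.44 ± 0.24 that did not pass (limma adjusted p = 0.286). The difference of the changes was 2.25 ± 0.27 (limma adjusted p = 5.61e-05, and 6.48e-05 with each fraction's own spread). No CPE of the letters searched stood in the last 150 bases of its annotated 3′UTR.

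Plat, the tissue-type plasminogen activator whose mRNA is stored in the growing oocyte, averaged 79.8 ± 11 RPKM in total RNA of IMZ, 320 ± 29.4 in IVM and 362 ± 21.7 in COC. On polysomes it had 99.8, 152, 98.4 and 74.8 RPKM in IMZ, against 111, 88.9 and 185 in IVM and 215, 131, 160 and 116 in COC. The polysomal ranges overlapped, and the changes of -2.09 and -0.40 differed by 1.71 ± 0.26 (limma adjusted p = 0.000853, and 0.00246 with own spreads). Lbr, the lamin B receptor of the inner nuclear membrane, averaged 15.1 ± 0.844 RPKM in total RNA of IMZ, 57 ± 6.01 in IVM and 62.3 ± 1.73 in COC, with a difference of changes of 1.69 ± 0.27 (limma adjusted p = 0.0012, and 0.00516 with own spreads). Plat holds 2 of the searched elements and Lbr 1. Plat and Lbr, and likewise Obox2, Klhl18, Hmgb2, Unc5a and Glce below, were named after their values were seen.

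Sub1 and Sumo2 differed in another way, being called higher on polysomes and not in total RNA. Sub1 averaged 67.3 ± 13.4 RPKM in total RNA of IMZ, 76.5 ± 15.4 in IVM and 77 ± 15.8 in COC, a change of -0.19 that did not pass (limma adjusted p = 0.3), against 1.40 on polysomes. The difference was 1.60 ± 0.25 (limma adjusted p = 0.000853, and 0.00175 with own spreads). Sumo2 was lower in total RNA, at 62 ± 8.04 RPKM in IMZ, 87.6 ± 12.6 in IVM and 92.9 ± 8.71 in COC, and its changes differed by 1.59 ± 0.21 (limma adjusted p = 0.000186, and 0.000838 with own spreads). Hmgb2, a chromatin protein, was likewise lower in total RNA (-0.72) and higher on polysomes (0.77), a polysomal call lost without IMZ replicate 2 or 4, IVM replicate 3 or COC replicate 4 (adjusted p of 0.0535 to 0.0648). That call was also lost with RPKM as deposited, with IVM replicate 1 kept in and with the GC trend removed (up to 0.167).

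Also above their total change under both fits were the oocyte homeobox gene Obox2 (1.56), the ubiquitin ligase adaptor Klhl18 (1.54), the protease Furin (1.44), the netrin receptor gene Unc5a (1.39), the Ku subunit gene Xrcc5 (1.34) and Glce, an enzyme of heparan sulfate synthesis (1.21). Glce fell on polysomes as well (-1.08), by less than in total RNA (-2.26), a polysomal call lost without IMZ replicate 2 or 3 (adjusted p of 0.0586 to 0.062) and with IVM replicate 1 kept in (0.106). The 4 genes below their total change under both fits were Aaas (-2.28), Tulp3 (-1.08), Stk25 (-1.05) and Scaf1 (-1.04). Aaas averaged 12.8 ± 2.28 RPKM in total RNA of IMZ, 20.2 ± 0.438 in IVM and 19.3 ± 1.8 in COC, a change of -0.60 against -2.91 on polysomes. Tulp3, a ciliary trafficking protein, Stk25, a kinase, and Scaf1, an RNA polymerase II associated factor, were higher in total RNA by 0.33, 0.23 and 0.35 and changed on polysomes by -0.78, -0.84 and -0.71, calls lost without 9, 4 and 11 of the 11 polysomal libraries. Those libraries include IVM replicate 3 and COC replicate 4 in each case.

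The counts of 49 and 26 became 92 and 62 without polysomal IMZ replicate 4, 84 and 62 without polysomal IVM replicate 2, and 95 and 56 without polysomal COC replicate 1. Without 1 total RNA library the higher count ran from 14 (IMZ replicate 1) to 35 (IVM replicate 2) and the lower count from 6 (IMZ replicate 1) to 16 (IVM replicate 2 or 3), each of the 12 moving at least 1 of them by over 1.5 times. Without polysomal IVM replicate 3 the lower count was 17.

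**Figure D3:**
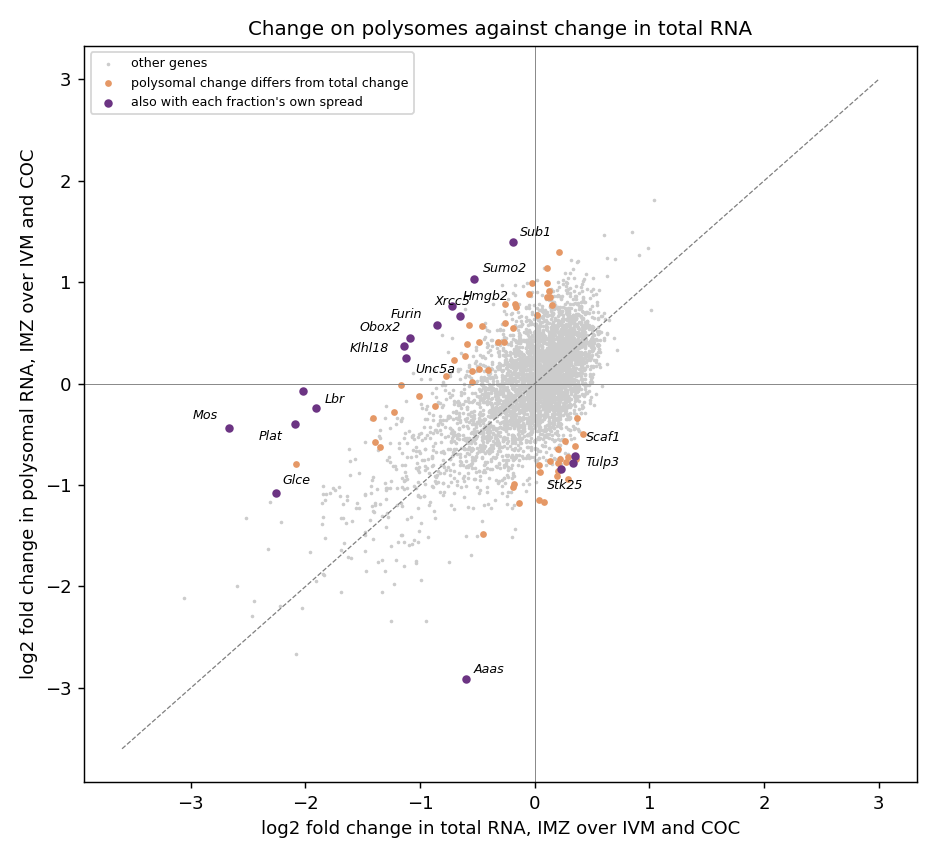
Log2 fold change of IMZ over IVM and COC on polysomes (vertical) against that in total RNA (horizontal), with a point for each of 4405 genes and a dashed line where both are equal. Mos, Plat and Lbr lie far left with polysomal changes between -0.44 and -0.24, and Aaas lies below the line at -2.91.

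The change from oocyte to zygote was also measured in vivo, in 7 polysomal libraries that share none with the comparison above: 3 of zygotes matured and fertilized in vivo (IVZ, replicate 1 left out as excluded by the authors) and 4 of oocytes matured in vivo (IVO). IVZ against IVO gave 49 genes higher (1.12%) and 140 lower (3.2%) of 4380. Of the 197 genes lower in vitro 189 had a change below 0 in vivo and 73 passed as lower there, with a median of -0.97. Of the 78 genes higher in vitro 73 had a change above 0 in vivo and 10 passed as higher, with a median of 0.58. Over all 4380 genes the in vivo change was above 0 in 2299 and below 0 in 2081.

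Zp3 averaged 161 ± 15.7 RPKM in IVZ (SD, n = 3) and 792 ± 184 in IVO (SD, n = 4), a change of -2.26 (limma adjusted p = 0.000218) beside -2.19 in vitro. Khdc3 averaged 52.1 ± 29 RPKM in IVZ and 511 ± 197 in IVO, a change of -3.33 (limma adjusted p = 0.000218) beside -2.29. Sub1 averaged 81.5 ± 16.5 RPKM in IVZ and 19.5 ± 4.01 in IVO, a change of 2.01 (limma adjusted p = 0.000218) beside 1.40. Xrcc1, Sumo2 and Ccnb1 changed in vivo by -1.81, 0.95 and 0.85 (limma adjusted p = 0.000687, 0.0439 and 0.0455), close in value to -1.88, 1.03 and 0.78 in vitro. Mos was lower on polysomes in vivo (-1.24, limma adjusted p = 0.0205), at 31.3 ± 8.3 RPKM in IVZ and 75.2 ± 17.9 in IVO. Of the lists, cytosolic ribosomal proteins had a median of -1.07 in vivo with 25 lower, and nuclear-encoded respiratory chain genes -0.48 with 10 lower.

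The mitochondrially encoded mRNAs had a median of 0.11 in vivo with 0 called, beside 1.24 in vitro. mt-Nd1 averaged 129 ± 49.9 RPKM in IVZ and 168 ± 63.7 in IVO, a change of -0.38 that did not pass (limma adjusted p = 0.629). Its in vitro change exceeded the in vivo change by 1.88 ± 0.47, which did not pass after adjustment (limma adjusted p = 0.925). mt-Nd2 averaged 133 ± 41 RPKM in IVZ and 127 ± 85.5 in IVO, and its changes differed by 1.24 ± 0.50 (limma adjusted p = 1).

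Over all genes the limma test of in vitro against in vivo change, on 18 libraries, called 0 genes higher (0%) and 0 lower (0%), with 153 (3.49%) at an unadjusted p under 0.05. The median SE of the difference was 0.43. The smallest p belonged to Ccnb1ip1, a ubiquitin ligase of meiotic crossing over, with 359 ± 119 RPKM in IMZ, 162 ± 19.5 in IVM and 222 ± 86.8 in COC, and 151 ± 44.8 in IVZ and 328 ± 92 in IVO. Its changes went opposite ways, 0.89 in vitro and -1.11 in vivo, with a difference that did not pass after adjustment (SE 0.44, limma adjusted p = 0.721). Nup37 averaged 8.78 ± 3.95 RPKM in IVZ and 9.69 ± 1.88 in IVO, and its changes of 1.30 in vitro and -0.21 in vivo differed by 1.50 ± 0.42 (limma adjusted p = 1).

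**Figure D4:**
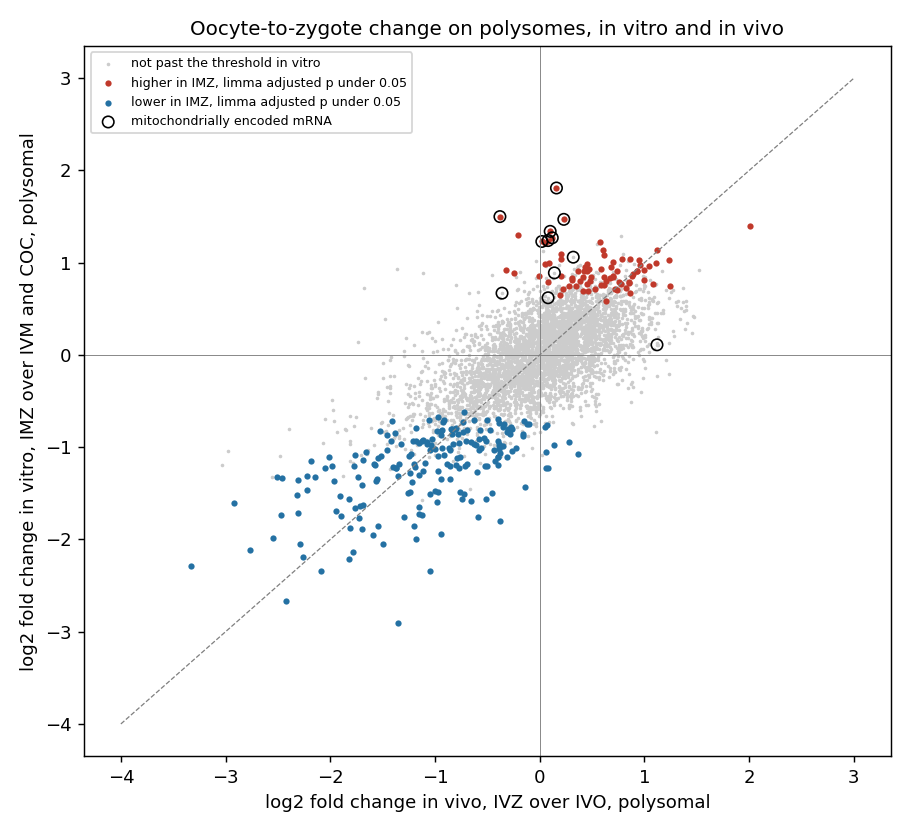
Log2 fold change from oocyte to zygote on polysomes in vitro (IMZ over IVM and COC, vertical) against in vivo (IVZ over IVO, horizontal), with a point for each of 4380 genes, genes past the threshold in vitro coloured and mitochondrially encoded mRNAs ringed. Lower genes lie below 0 on both axes in 189 of 197 cases, while the ringed mRNAs have a median of 1.24 on the vertical and 0.11 on the horizontal axis.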

How the data were processed

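Polysomal and total RNA libraries were made with a stranded low-input kit, per the labels' protocols. The submitters' processing notes name DRAGEN and the genome build GRCm39. For aligner settings, annotation and counting, no statement is given in the sources used here. The authors deposited RPKM per gene and library, per the file headers, in tables whose values start at 0.2 RPKM in every library, so a gene silent in 1 stage is not seen. Tables that share a library gave the same RPKM in all 190488 values compared, so joining tables did not change a value.

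No counts were used. The worth of 1 read in low RPKM values, with exon lengths of GENCODE M21, gave the depth. RPKM was rescaled by the median of ratios and limma 3.58.1 (R 4.3.3, variance trend) was run on log2(RPKM + 1), with the groups IMZ, IVM and COC and the contrast IMZ minus the mean of IVM and COC. Fold changes on this scale understate changes of low genes. The p-values were adjusted by Benjamini-Hochberg over all genes tested, and genes were called under 0.05. The tests of polysomal against total change and of in vitro against in vivo change are interaction terms. For the first, an added fit gave each fraction its own spread. Total RNA libraries were treated as unpaired with polysomal ones. The fits were tested on simulated data.

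The members and lists were chosen with earlier results of these data known. Named genes were the 12 lowest and 12 highest called in all 3 contrasts without overlap between stages, up to 4 members of each list by smallest p, Ccnb1, Mos, Btg4, Gdf9, Zp3, Dppa3 and Nlrp5, and the 4 with the smallest p in each direction of each interaction. Predicted genes were left out, and a few genes are not reported here. Other genes, list members beyond the 4 included, were named after their values were seen.

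Replicate numbers are shared by the groups. The deviations of same-numbered IMZ and IVM libraries from their group means had correlations of 0.382, 0.157 and 0.322. For IMZ and COC these were -0.0213 to 0.172. IMZ replicate 3 correlated more with IVM replicate 4 (0.175) than with IVM replicate 3 (0.157), so the correlations do not settle a pairing. No block was used, because the labels do not say that a number marks a shared animal or day. Alternatives were other scalings, pseudocounts of 0.1 and 5, filters on mean RPKM, IVM replicate 1 kept in, the replicate number as a block, each library left out, array weights, no variance trend and stricter calls. Removal of the GC or length trend, own spreads, IVZ replicate 1 kept in and a larger gene set for COC were added after the data were seen. Figures used matplotlib 3.10.9. Unused columns of values of a sample numbered 0.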

Additional observations from a re-analysis of the deposited data

Results flagged for a closer look

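In groups of 4 libraries, a library was picked out by its gap to the nearest other, as a part of the group's range. The gap had to exceed Dixon's 95% limit, which chance gives in about 1 of 20 groups. With 145 genes named, each in the IMZ and the COC group, chance at that rate could give most of the flags below. Among IMZ libraries of the genes named, H2ac18 stood at 7091 RPKM in replicate 4, against 3724 to 3810 in the others. Replicate 2 was high for Itpr2 (16.5 RPKM), Pramel26 (213 RPKM) and Zfp57 (911 RPKM) and low for Ung (31.3 RPKM) and Zar1 (345 RPKM). Psmb6 stood at 47.7 RPKM in IMZ replicate 3.

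Among COC libraries, replicate 1 was high for Glce (18.4 RPKM), Lars2 (771 RPKM, against 99.9 to 160 in the others), Mrps24 (252 RPKM), Ncaph (29.7 RPKM), Rps13 (54.5 RPKM) and Snrpd2 (43.9 RPKM). COC replicate 2 was high for Prdx2 (641 RPKM), Snrpa (54.4 RPKM) and Zfp57 (472 RPKM) and low for Psmb6 (59 RPKM). COC replicate 3 was low for Fars2 (5.54 RPKM), Glrx5 (59.8 RPKM) and Pramel34 (10.9 RPKM). Histone and PRAME-like genes belong to families of near-identical copies, so their levels are uncertain.

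The oocyte-to-zygote change differed between polysomal and total RNA by the limma interaction term in 25 of the genes named. The polysomal change was the higher one for Mos (2.25), Plat (1.71), Lbr (1.69), Sub1 (1.60), Sumo2 (1.59), Obox2 (1.56), Klhl18 (1.54), Hmgb2 (1.52), Furin (1.44), Unc5a (1.39), Xrcc5 (1.34), Glce (1.21), Nup37 (1.11), Prc1 (1.06), H3f3a (0.99), Daxx (0.94), Ckap2 (0.90), Tmpo (0.75) and Ccnb1 (0.66). It was the lower one for Aaas (-2.28), Klhdc2 (-1.22), Tulp3 (-1.08), Stk25 (-1.05), Scaf1 (-1.04) and Parp12 (-0.80). With each fraction's own spread, Nup37, Prc1, H3f3a, Daxx, Ckap2, Tmpo, Ccnb1, Klhdc2 and Parp12 no longer passed.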

How the results depend on the processing

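The main limits are depth, 4.93 to 38.9 M reads where it was recovered, the filter of the deposited tables, and groups of 3 or 4 libraries. None of the 275 called genes of the main comparison changed sign in its 24 alternatives. Of the genes named by the rule or for passing with own spreads, 77 were past the threshold; 41 of them stayed past it without each single library and 35 in all 24 alternatives, among them Zp1, Zp2, Zp3, Khdc3, Xrcc1, mt-Nd1, mt-Nd2, Sub1, Sumo2, Gnl3 and Aaas. Of the 77 calls 24 were lost with IVM replicate 1 kept in, those of Tyms, Pabpn1, Hmgb2, Tmpo, Tubg1, Astl, Tle6 and Nlrp5 among them, and 26 with the GC trend removed. The cause of the differences below was not tested.

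For IMZ against both oocyte groups (78 higher, 197 lower) the counts were 19 higher with deposited RPKM, 119 higher with quantile normalization, 21 and 107 with IVM replicate 1 kept in, 230 and 434 with array weights, 39 and 122 with the GC trend removed, 6 and 53 at an adjusted p under 0.01, and 23 and 125 with a log2 change of at least 1. Without 1 library they ran from 24 to 110 higher and from 85 to 300 lower. Against IVM (12 and 80) they were 6 higher with deposited RPKM, 30 higher with quantile normalization, 96 and 295 with array weights, 33 higher with the length trend removed, 1 and 27 at 0.01, and without 1 library from 1 to 18 higher and from 21 to 168 lower. Against COC (38 and 107) they were 9 and 191 with deposited RPKM, 2 and 37 with IVM replicate 1 kept in, 241 and 368 with array weights, 21 and 56 with the GC trend removed, 23 higher over 5946 genes, 1 and 24 at 0.01, 24 higher with a log2 change of at least 1, and without 1 library from 3 to 48 higher and from 29 to 147 lower. For polysomal against total change (49 and 26) they were 12 and 10 with deposited RPKM, 17 and 7 with IVM replicate 1 kept in, 80 and 62 with array weights, 13 and 4 with own spreads, and without 1 library from 14 to 95 higher and from 6 to 62 lower. For in vitro against in vivo change the count was 0 in every alternative.

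With the replicate block the main counts were 71 and 233 and those against IVM 12 and 88. It lost 4 named calls (Dnajb4, G3bp2, Nlrp5 and Orc2). Whether a shared number marks paired libraries is not given in the labels.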
